A study of Danio rerio with 11 samples.

Results

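The peaks described here are those of 2 MBD-seq lists, 122477 peaks from zebrafish embryos at the midblastula transition (mbt) and 178587 peaks from one-cell embryos, together 301064 of the 816382 peaks in the 9 lists of the series. A one-cell peak was called kept when its interval overlapped an mbt interval by at least 1 bp and missing when it did not. An mbt peak was called already present or new in the same way against the one-cell list. Every peak of both lists was then looked up in the sperm list of 96505 peaks. The mbt and one-cell libraries came from genomic DNA of whole, untreated Tubigen AB (Tübingen/AB in the study's methods) embryos, each a pool of a very large number of embryos, and sperm was pooled from several males. The other lists are those of untreated embryos at 3 days post-fertilization (3dpf), of 3dpf embryos raised in 400 µM methotrexate (MTX), and of adult eye, brain, heart and liver. Each condition had 1 methylation-enriched library and no replicate, so no difference below has a replicate check and none was tested. Shares are given with 95% Wilson intervals where they are close, and these intervals cover counting error only and take peaks as independent. Sperm, one-cell and mbt libraries ran in the same lane, lane 5, with the lane 5 methylation-poor brain library named as their shared control.

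MBD-seq pulls down methylated fragments with the binding domain of a methyl-CpG protein, so that a peak marks a place with many methylated CpGs in the captured DNA and says little of sparse methylation. The one-cell embryo carries a paternal genome from sperm and a maternal genome from the egg, which was not profiled here. In the cleavages that follow, the zygotic genome is largely silent, and the midblastula transition is the time at which its transcription starts in earnest. Work in zebrafish has described that the sperm methylation pattern is largely carried through these cleavages, while the maternal pattern is reset towards it. Maintenance methylation after each division depends on Dnmt1, and new methylation on the Dnmt3 enzymes.

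The deposited intervals span 100 bp to either side of a peak centre. No interval overlapped another of its own list. The closest centres within a list were 554 bp apart at mbt and 533 bp apart in one-cell embryos, and for this reason each kept peak matched exactly 1 mbt peak. By the study's read counts the one-cell library had fewer properly paired reads than the mbt library, although its list is the longer. The score that comes with each peak was compared only within its own list, as a percentile rank, in which 100 is the highest-scoring peak.

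Of the one-cell peaks, 99288 (55.6%) were kept at mbt and 79299 (44.4%) were missing. Of the mbt peaks, 99288 (81.1%) were already present in one-cell embryos and 23189 (18.9%) were new. Because matching was one to one, the excess of missing over new peaks equals the difference in length between the lists, whichever peaks are shared, and lists of equal length would give as many missing as new peaks. The new share depended on where the lists were ended and on distance. It was 29.9% with the 122477 highest-scoring peaks of each list, 31.1% in the upper quartiles of score, and 8.08% when a one-cell centre within 1000 bp counted as present. In the kept peaks, the 2 centres were a median of 28 bp apart, with quartiles of 11 and 56 bp, and 71.3% were at most 50 bp apart. Few matches therefore rested on a marginal overlap, and 9.68% of kept peaks overlapped by under 100 bp. Since the lists differ in length, the comparison was repeated with the 96505 highest-scoring peaks of each list. On that footing mbt and one-cell lists shared 69.2% of their peaks, one-cell and sperm lists 66.2%, mbt and sperm lists 80.7%, and 3dpf and mbt lists 73.3%. At equal length, the mbt list was thus closer to the sperm list than to the one-cell list.

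**Figure D1:**
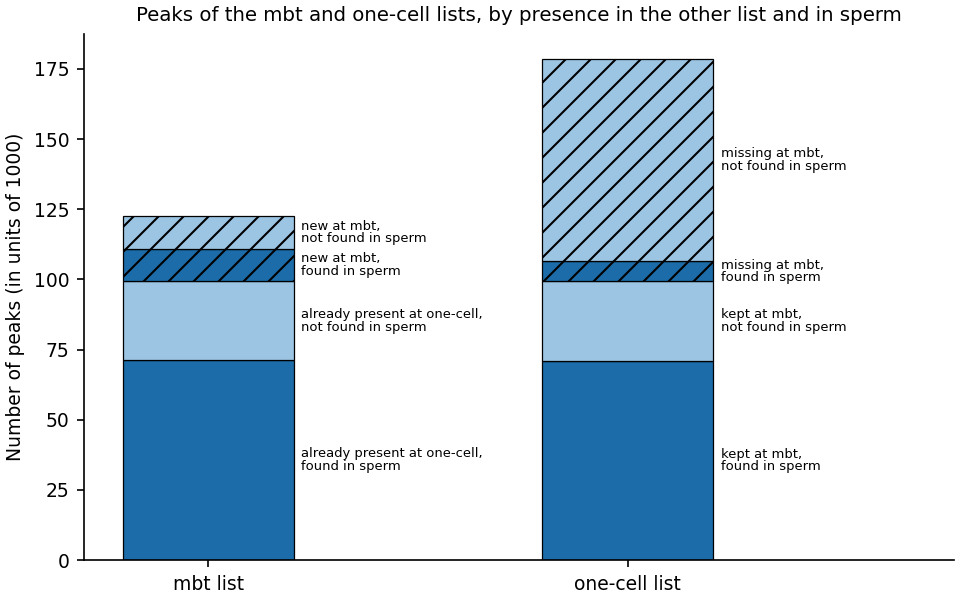
Number of peaks, in units of 1000, in the mbt and one-cell lists, stacked by whether the peak overlapped the other list (plain) or not (hatched) and whether it was found in sperm (dark) or not (light). The tallest block of the one-cell bar is the 72161 missing peaks that were not found in sperm, and new mbt peaks divide about evenly, 11548 found in sperm and 11641 not.

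Presence in sperm separated the one-cell peaks sharply. Of the one-cell list, 78079 peaks (43.7%) were found in sperm, and 70941 of these (90.9%, interval 90.7 to 91.1%) were kept at mbt. Of the 100508 one-cell peaks that were not found in sperm, 28347 (28.2%, interval 27.9 to 28.5%) were kept. The difference was 62.7 percentage points. Read from the other side, 71.4% of kept peaks and 9.0% of missing peaks were found in sperm, and 72161 of the 79299 missing peaks (91.0%) had no sperm peak. The peaks that left the list between the one-cell stage and mbt were therefore for the most part peaks that the sperm list does not hold.

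The mbt list as a whole had 82746 peaks (67.6%) found in sperm. Among its peaks, 71198 of those already present in one-cell embryos (71.7%) and 11548 of the new ones (49.8%, interval 49.2 to 50.4%) were found in sperm. New mbt peaks were thus less often sperm peaks than the mbt list as a whole, but more often than missing one-cell peaks, of which 9.0% were. The share of new peaks found in sperm depended on where the lists were ended. It was 55.5% at or above the median score and 66.4% with the 96505 highest-scoring peaks of each list. With an overlap of at least 100 bp it was 46.6%. Seen from the sperm list, 73.9% of sperm peaks were in both embryo lists, 7.04% in the one-cell list only, 11.9% in the mbt list only and 7.22% in neither. Sperm peaks with an mbt but no one-cell peak (11463) were thus more numerous than those with a one-cell but no mbt peak (6796).

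Kept peaks ranked higher in the one-cell list than missing peaks. The median rank was 67.2 for kept peaks (quartiles 46.1 and 83.9) and 28.8 for missing peaks (quartiles 13.5 and 48.5), a difference of 38.4 percentile points. At mbt, peaks already present had a median rank of 52.3 (quartiles 27.9 and 76.0) and new peaks one of 37.6 (quartiles 14.0 and 68.6), a difference of 14.7 points, which was 27.0 points with equal numbers of highest-scoring peaks and 23.7 points with the 1000 bp criterion. The ranges of ranks overlapped widely in both lists. Peaks that were both missing and absent from sperm ranked lowest in the one-cell list, with a median of 27.5, whereas missing peaks found in sperm had a median of 48.9. At mbt the contrast followed sperm more than the one-cell list. The median rank was 64.7 for already present and 60.6 for new peaks found in sperm, against 20.7 for already present and 16.9 for new peaks not found in sperm.

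The kept share climbed with score and then turned. It was 17.2% in the lowest decile of the one-cell list, 50.7% in the fifth, 88.2% in the ninth and 85.1% in the highest. Among one-cell peaks found in sperm it was 60.6% in the lowest decile, 96.1% in the ninth and 95.3% in the highest. Among those not found in sperm it was 11.7% in the lowest decile, reached 51.6% in the eighth, and was 29.6% in the highest (816 of 2760 peaks, interval 27.9 to 31.3%). In each of the 10 deciles the kept share was higher for peaks found in sperm than for the others of the same decile. The mbt list showed the same turn. The share already present among its peaks not found in sperm was 62.0% in the lowest decile, 79.5% in the fourth and 43.0% in the highest (442 of 1029 peaks).

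**Figure D2:**
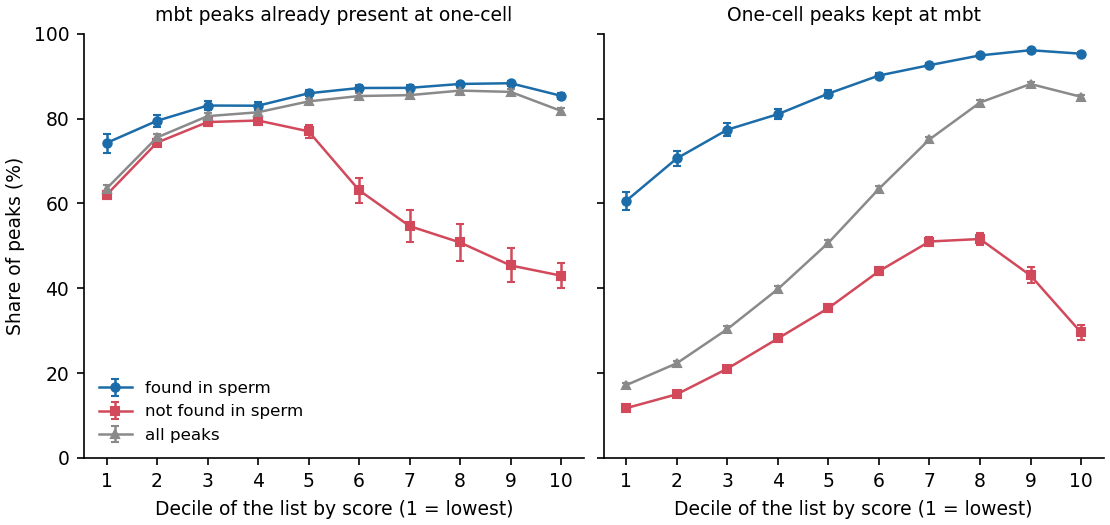
Share of mbt peaks already present in one-cell embryos (left) and of one-cell peaks kept at mbt (right), in % with 95% Wilson intervals, by decile of the list's score, for peaks found in sperm (circles), not found in sperm (squares) and all peaks (triangles). Among peaks not found in sperm, both curves fall in the high deciles, to 43.0% at mbt and 29.6% in one-cell embryos.

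Within kept pairs, ranks in the 2 lists were related but not equal. Across the 99288 pairs, Spearman's rho of the ranks was 0.674 and Pearson's r was 0.640, as a description over peaks that share the same 2 libraries. The rank at mbt minus the rank in the one-cell list had a median of -10 percentile points. For kept peaks found in sperm, ranks had a median of 64.6 at mbt and 75.1 in one-cell embryos, with a median difference of -6.09 points. For kept peaks not found in sperm, ranks had a median of 20.7 at mbt and 46.8 in one-cell embryos, and the median difference was -22.4 points. These differences in part follow from list length, since the one-cell list holds more low-ranking peaks without a partner, which lifts the rank of its kept peaks. They are given as positions within each list and not as a change of signal.

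A missing peak can lie beside an mbt peak whose centre moved by more than the interval allows, and this was checked with centres within 1000 bp. A one-cell centre lay this close to 13289 of 23189 new mbt peaks (57.3%, interval 56.7 to 57.9%), and for 11972 (51.6%) it belonged to a missing peak. An mbt centre lay this close to 14919 of 79299 missing peaks (18.8%, interval 18.5 to 19.1%), and for 12033 of them (15.2%) it belonged to a new mbt peak. The nearest centre of the other list was a median of 850 bp from a new mbt peak and 3142 bp from a missing one-cell peak. For comparison, the share with a centre in a shell of the same width (800 bp on each side) but starting at 2000, 3000 or 4000 bp was counted. It was 26.7, 24.6 and 24.4% for new mbt peaks and 17.0, 16.4 and 16.3% for missing one-cell peaks. Nearby one-cell centres were thus more frequent around new mbt peaks than farther off. The matching fixes part of this contrast, because one-cell centres are at least 533 bp apart. An mbt peak with a one-cell centre just beyond 200 bp has hardly any room for a partner and so counts as new. At 200 to 400 bp, 5134 one-cell centres lay around new mbt peaks and 0 around those already present. The 18.8% of missing peaks lay little above the farther shells, though spacing lowers the near count. In the near and the 3000 bp shell the share was 35.2 and 17.0% for missing peaks found in sperm. It was 17.2 and 16.4% for those not found.

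Among new and missing peaks, nearby centres were most frequent around those that scored high. Of the new mbt peaks, 51.5% in the lowest decile, 52.3% in the fifth and 78.8% in the highest (1756 of 2229) had a one-cell centre within 1000 bp. Of the missing one-cell peaks, 9.54% in the lowest decile, 15.6% in the fifth and 81.4% in the highest (2160 of 2655) had an mbt centre this close. In the shell starting at 3000 bp, the share was 22.9% in the lowest decile and 26.4% in the highest for new mbt peaks, and 15.5% in the lowest and 21.9% in the highest for missing peaks. Missing peaks of the highest decile thus had an mbt centre nearby far more often than farther off. Those of the lowest decile had one less often. Neither is read as a trait of high-scoring or low-scoring peaks. The spacing of one-cell centres lowers the count near any missing peak. An mbt centre just beyond 200 bp also leaves hardly any room for a match, so the matching itself makes such a one-cell peak missing. Missing peaks made up 14.9% of one-cell peaks in the highest decile and 82.8% in the lowest. When centres within 1000 bp counted as present, the kept share of one-cell peaks no longer fell in the highest decile. Among one-cell peaks found in sperm the share was then 66.4% in the lowest decile and 99.0% in the highest, and among those not found 19.9% in the lowest and 87.3% in the highest. At mbt the fall became smaller but did not go away, with 91.4% of peaks not found in sperm present in the fifth decile, 84.0% in the ninth and 85.7% in the highest. By this count 9900 mbt peaks (8.08%) remained without a one-cell counterpart and 64380 one-cell peaks (36.0%) without an mbt counterpart. An mbt centre lay within 1000 bp of 94.1% of the one-cell peaks found in sperm and of 40.6% of those not found.

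By distance, mbt centres around missing one-cell peaks numbered 6.47 per 100 missing peaks at 200 to 400 bp, 4.67 at 400 to 600 bp, 3.00 at 600 to 800 bp and 5.09 at 800 to 1000 bp, and stayed between 4.20 and 5.11 in each further ring of 200 bp up to 5000 bp. The count was thus above the level farther off at 200 to 400 bp and below it at 600 to 800 bp. The rings under 800 bp hold fewer mbt centres with a one-cell partner than those farther off, because of the spacing of one-cell centres. New mbt centres alone numbered 6.47, 4.67, 2.53 and 1.69 per 100 in the same first rings and 0.951 at 1400 to 1600 bp. This decline is in part fixed by the matching, because centres of 1 list are at least 533 bp apart, so that an mbt centre close to a missing peak has no room for a one-cell partner of its own. For the same reason a kept peak, which has an mbt centre within 200 bp, can hardly have a second at 200 to 600 bp, and the counts there show only the spacing of the list.

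**Figure D3:**
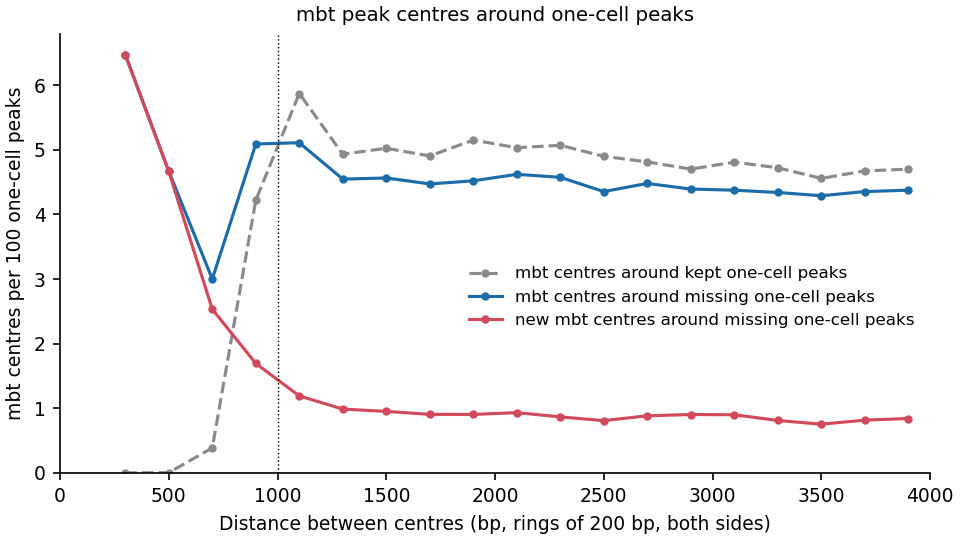
mbt peak centres per 100 one-cell peaks, in rings of 200 bp by distance (bp) from the one-cell centre, around kept peaks (dashed), around missing peaks, and for new mbt centres around missing peaks. Around missing peaks the count is 6.47 at 200 to 400 bp and 3.00 at 600 to 800 bp before it levels off, the low counts around kept peaks under 600 bp follow from the spacing of centres within a list, and the dotted line marks 1000 bp.

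Missing and new peaks that were each other's nearest unmatched centre formed 11827 pairs within 1000 bp, which is 14.9% of missing and 51.0% of new peaks. Their centres were a median of 444 bp apart, with quartiles of 282 and 604 bp. Their median rank was 51.9 at mbt and 64.4 in one-cell embryos. In these pairs, the sperm list held a peak at the mbt position alone in 5772 pairs (48.8%), at the one-cell position alone in 1535 (13.0%), at both in 724 (6.12%) and at neither in 3796 (32.1%). The 3dpf list had the mbt position alone in 40.4% of pairs and the one-cell position alone in 13.2%. In liver, the mbt position alone was found in 4139 pairs (35.0%) and the one-cell position alone in 599 (5.06%). Eye, brain and heart gave 32.7, 41.6 and 34.8% for the mbt position alone and 5.14, 8.07 and 5.06% for the one-cell position alone. In all 7 other lists the mbt position was thus the one more often shared, by between 3.06 times in 3dpf and 6.91 times in liver. This order is not particular to the pairs. All new mbt peaks together were also found more often than all missing peaks in each of these lists. The shares were 49.8 against 9.0% in sperm, 46.7 against 13.9% in 3dpf and 31.6 against 2.82% in liver. The 7 lists are not independent of each other, since they share many peaks.

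Later lists were looked at next, because the division into kept, missing and new did not use them. Of the mbt list as a whole, 63.1% of peaks were found at 3dpf, and of the one-cell list 43.0%. At 3dpf, 65734 of the kept peaks (66.2%) and 11060 of the missing peaks (13.9%) were found, a difference of 52.3 percentage points. The difference remained within presence in sperm. Among one-cell peaks found in sperm, 83.8% of kept and 46.3% of missing peaks were found at 3dpf, and among those not found in sperm 22.2% of kept and 10.7% of missing peaks. It also remained at like score. In the highest decile of the one-cell list, 91.5% of kept and 35.8% of missing peaks were found at 3dpf. In the lowest decile these were 30.8% of kept and 4.77% of missing peaks. These shares pool peaks found and not found in sperm. Among peaks not found in sperm, the gap was smaller in each decile. For kept and missing peaks the shares were 8.86 and 3.33% in the lowest decile, 36.5 and 31.8% in the eighth. In the highest decile they were 54.8 and 30.7%. Among peaks found in sperm they were 64.8 and 30.6% in the lowest decile and 93.6 and 49.6% in the highest. Few of the peaks missing at mbt were thus on the 3dpf list again.

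In the adult tissues kept peaks were also found more often than missing ones. Brain held 51.1% of kept and 5.70% of missing peaks, eye 31.5% of kept and 2.63% of missing, heart 34.9% of kept and 2.85% of missing, and liver 34.9% of kept and 2.82% of missing peaks. The brain list, from more than 1 lane, is also the longest of these, with 79008 peaks. Eye has 45785, heart 50110 and liver 50170 peaks, so shares are not compared between tissues. Among one-cell peaks not found in sperm the gap was far smaller, with 6.04% of kept and 3.03% of missing peaks found in brain and 3.58% of kept and 1.50% of missing peaks in eye. Within score deciles of these peaks the order did not always hold. In liver it turned in the seventh decile, with 1.96% of kept and 2.39% of missing peaks, and in the eighth, with 3.34% of kept and 4.05% of missing peaks. All 4 adult tissues together shared 28.2% of kept and 1.53% of missing peaks. Of the kept peaks 21.0%, and of the missing peaks 78.0% (61835 peaks), were found in none of the other 7 lists.

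New mbt peaks behaved differently from missing one-cell peaks. At 3dpf, 66.9% of already present and 46.7% of new mbt peaks were found, a difference of 20.2 percentage points. Most of the new peaks found in sperm were also found at 3dpf (73.9%, against 84.5% of those already present). Among mbt peaks not found in sperm, 22.2% of already present peaks (interval 21.7 to 22.7%) and 19.6% of new peaks (interval 18.9 to 20.4%) were found at 3dpf. In adult tissues the shares of both kinds of mbt peak were closer. Eye held 31.9% of already present and 29.4% of new peaks, heart 35.2% of already present and 31.2% of new, liver 35.3% of already present and 31.6% of new, and brain 51.5% of already present and 38.6% of new peaks. Within presence in sperm the order turned in eye, heart and liver. Among mbt peaks found in sperm, eye held 43.2% of already present and 49.1% of new peaks, heart 47.8% of already present and 52.3% of new, and liver 47.9% of already present and 52.6% of new, while brain held 69.5% of already present and 65.6% of new peaks. Among those not found in sperm, eye held 3.28% of already present and 9.84% of new peaks, heart 3.51% of already present and 10.4% of new, liver 3.52% of already present and 10.7% of new, and brain 5.77% of already present and 11.8% of new peaks. With score left aside, the pooled order thus rested on the smaller portion of sperm peaks among the new ones. Brain, whose list is the longest of the adult tissues, was the exception, with already present peaks ahead both pooled and among sperm peaks. Whether list length plays a part was not tested. By score decile of the sperm peaks, the order changed in brain and in liver. In the lowest decile brain held 21.5% of already present and 42.3% of new peaks, and liver 4.71 and 23.5%. In the highest decile brain held 95.3% of already present and 83.6% of new peaks, and liver 96.2 and 86.1%. Of the mbt peaks, 21.0% of the already present and 36.8% of the new were found in none of the other 7 lists.

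**Figure D4:**
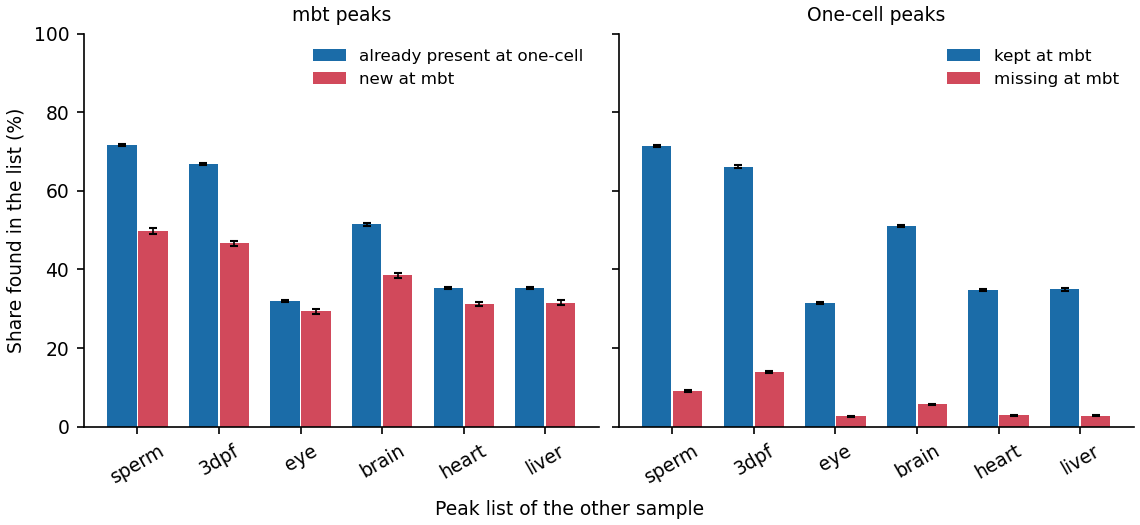
Share of mbt peaks (left) and of one-cell peaks (right) found in each other list, in % with 95% Wilson intervals, for already present and new mbt peaks and for kept and missing one-cell peaks. Missing one-cell peaks are low in every list, at 13.9% in 3dpf and 2.63% in eye, while new mbt peaks reach 46.7% in 3dpf and 29.4% in eye.

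New and missing peaks with a nearby centre of the other list differed from those without one. New mbt peaks with a one-cell centre within 1000 bp were found in sperm in 52.7% of cases and in brain in 43.9%, and the 9900 without one in 45.9 and 31.4%. Missing peaks with an mbt centre within 1000 bp were found in sperm in 16.8% of cases, and the 64380 without one in 7.19%. Their median ranks were 55.3 with such a centre and 25.5 without. New mbt peaks had median ranks of 47.6 with and 28.3 without. The new mbt peaks farther than 1000 bp from any one-cell centre were still found in sperm in 4543 of 9900 cases.

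Missing and new peaks were spread over the whole genome, with modest differences between chromosomes. The new share was lowest on chromosome 17 (16.4%, interval 15.4 to 17.5%) and highest on chromosome 4 (22.4%, interval 21.2 to 23.8%). The missing share was lowest on chromosome 2 (42.4%, interval 41.3 to 43.5%) and highest on chromosome 4 (49.8%, interval 48.6 to 51.1%). On unplaced scaffolds 21.0% of mbt peaks were new and 43.8% of one-cell peaks were missing. Among one-cell peaks not found in sperm, chromosome 4 also had the highest missing share (75.6%) of the 25 chromosomes. The gap between the highest and the lowest missing share, 7.44 percentage points, was 2.82 points with equal numbers of highest-scoring peaks.

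Chromosome 4, whose long arm is rich in repeats in zebrafish, was divided at 25 Mb, a boundary chosen with earlier results of these data known. Beyond 25 Mb, 661 of 2680 mbt peaks (24.7%) were new and 2028 of 4047 one-cell peaks (50.1%) were missing. Up to 25 Mb, 18.0% of mbt peaks were new and 49.3% of one-cell peaks were missing. Of the one-cell peaks found in sperm, 81.6% were kept beyond 25 Mb and 90.8% up to 25 Mb. Missing peaks beyond 25 Mb were found in brain in 19.9% of cases, against 2.91% of missing peaks up to 25 Mb and 5.70% over the whole list. The brain list itself is denser there, with 3540 peaks beyond 25 Mb and 620 up to 25 Mb. Of all one-cell peaks, 41.2% beyond 25 Mb and 21.5% up to 25 Mb were found in brain, and of the kept peaks 62.6% beyond 25 Mb and 39.5% up to 25 Mb. Of the one-cell peaks not found in sperm, 23.1% were kept beyond 25 Mb and 26.5% up to 25 Mb. The missing share was thus higher beyond 25 Mb both for peaks found in sperm and for the others. Pooled, it was nearly equal, with 45.7% of one-cell peaks found in sperm beyond 25 Mb and 37.6% up to 25 Mb. Brain presence was higher beyond 25 Mb for kept and for missing peaks.

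**Figure D5:**
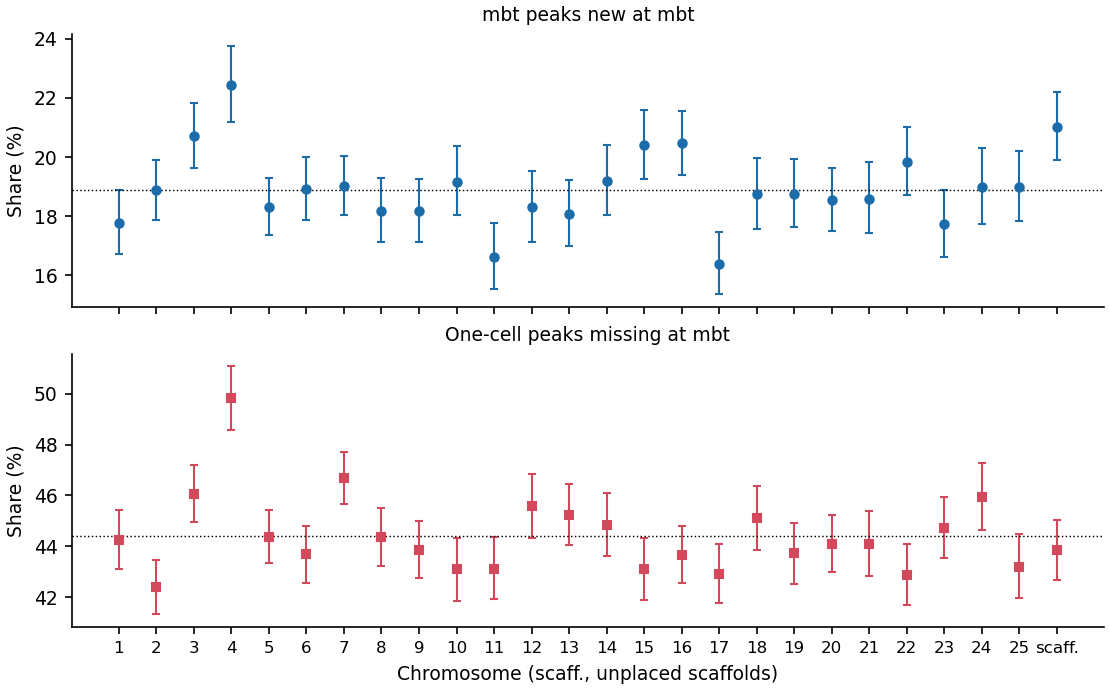
Share of mbt peaks that were new (top) and of one-cell peaks that were missing (bottom), in % with 95% Wilson intervals, for each of the 25 chromosomes and for unplaced scaffolds. The dotted lines mark the shares over the whole lists (18.9 and 44.4%), the axes do not start at 0, and chromosome 4 is the highest in both panels, at 22.4 and 49.8%.

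Over windows of 1 Mb with at least 50 peaks, the missing share had a median of 45.2% in 1356 windows and lay between 28.2 and 76.8%. Its SD over windows was 6.20 percentage points, where counting error alone gives 4.72. For the new share, 1144 windows gave a median of 18.5%, a range of 4.62 to 48.0% and an SD of 5.11, with 4.29 from counting alone. Most of the spread between windows was thus of the size of the counting error. The 3 windows with the highest missing share were chr4:52000001-53000000 (53 of 69 peaks), chr23:24000001-25000000 (48 of 71) and chr4:49000001-50000000 (51 of 77). The 3 with the lowest were chr1:57000001-58000000 (31 of 110), chr7:77000001-77275195 (17 of 59) and chr21:6000001-7000000 (44 of 145). The new share was highest in chr4:49000001-50000000 (24 of 50), chr4:37000001-38000000 (23 of 56) and chr5:56000001-57000000 (25 of 61). It was lowest in chr1:8000001-9000000 (3 of 65), chr23:33000001-34000000 (3 of 64) and chr6:10000001-11000000 (4 of 73). Missing and new share were weakly related across the 1144 windows (Pearson's r 0.261, Spearman's rho 0.215, a description across windows of the same libraries).

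Shares differed by only a few percentage points with position along the chromosome. The missing share was 43.0% within 1 Mb of a chromosome end, the far end being taken as the last peak of any list, 42.0% at 1 to 5 Mb and 45.3% farther in, and the new share was 19.9, 20.5 and 18.2% over the same distances. One-cell peaks within 1 Mb of an end were also more often found in sperm (48.1%) than those over 5 Mb away (42.2%).

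Kept and missing peaks were interspersed. The nearest other one-cell peak was a median of 2640 bp from a kept peak (quartiles 1587 and 4847 bp) and 2739 bp from a missing one (quartiles 1580 and 5194 bp). New mbt peaks lay closer to other mbt peaks, with medians of 3526 bp for already present and 2985 bp for new peaks. A one-cell peak was missing in 45.7% of cases when the peak before it on the chromosome was missing, and in 43.4% when that peak was kept, a difference of 2.25 percentage points. This difference lay between 1.10 points with equal numbers of highest-scoring peaks and 5.85 points with the 1000 bp criterion. Where both peaks of such an adjacent pair were found in sperm, 11.7% of peaks were missing after a missing peak and 9.21% after a kept one, and where neither was, 72.5% were missing after a missing peak and 70.4% after a kept one. Beside the 62.7 points between one-cell peaks found and not found in sperm, the state of the neighbour thus made a small difference. The missing share was 48.5% among one-cell peaks with no other peak within 10 kb, 41.3% among those with 6 to 9 and 47.3% (interval 39.8 to 54.9%) among the 165 with 10 or more. Presence in sperm moved along with this, at 39.0, 48.0 and 42.4%, and among peaks not found in sperm the missing share was 72.6, 71.5 and 75.8%. New peaks made up 17.4% of mbt peaks with no other mbt peak within 10 kb, 24.5% of those with 6 to 9 and 35.1% (interval 21.8 to 51.2%) of the 37 with 10 or more.

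Long runs of like peaks were rare. Runs of kept peaks had a mean length of 2.29 peaks, and 3.37% of kept peaks lay in runs of 10 or more. Runs of missing peaks had a mean length of 1.83 peaks, and 0.734% of missing peaks lay in runs of 10 or more. With 55.6% of the list kept and 44.4% missing, longer runs of kept peaks follow from these shares alone. Run lengths in random order were not computed. The longest run of kept peaks held 21 peaks at chr17:46716804-47021942, of which 16 were found in sperm and 19 at 3dpf, and 27 mbt peaks fell in the same span. The longest run of missing peaks held 19 peaks at chr4:40198344-40319443, a span of 121 kb with no mbt peak at all. None of the 19 was found in sperm or at 3dpf, and their median rank was 10.1. The next longest, 18 peaks at chr4:41515873-41588598, had 1 mbt peak in its span and 1 peak found in sperm.

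Single peaks illustrate both directions. The highest-scoring missing one-cell peak with no mbt centre within 1000 bp was at chr18:49442-49642, at place 55 of the one-cell list, and was found in sperm, 3dpf, MTX-3dpf and heart. The second-ranking new mbt peak of this kind was at chr18:50856-51056, at place 27 of the mbt list, 1414 bp from it, and was found in 3dpf, MTX-3dpf, eye and liver. A like pair stood on chromosome 15, with the new mbt peak at chr15:24431457-24431657 and the missing one-cell peak at chr15:24430378-24430578, 1079 bp apart. The other missing peaks were at chr21:31821585-31821785, which was found in sperm only and lay 1143 bp from the nearest mbt centre, at chr9:58021174-58021374, which was found in 6 other lists and lay 1160 bp from the nearest, and at chr7:65533538-65533738, which was found in none. This last peak, at place 294 of the one-cell list, was 2738 bp from the nearest mbt centre. The other 4 of the 5 missing peaks thus had an mbt centre between 1079 and 1414 bp away, just beyond the limit. The other new mbt peaks were at chr4:61296543-61296743 and chr4:61294560-61294760, both found in sperm, and at chr15:13447216-13447416, which was found in sperm, 3dpf and MTX-3dpf.

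The highest-scoring peak of both lists was kept. It lay at chr20:55787178-55787378 in both, with the same start and end, and was also found in sperm, 3dpf, MTX-3dpf, eye, heart and liver, but not in brain. The regions that the study tested by PCR were looked up as well. At tert, the telomerase reverse transcriptase gene, chosen there as rich in methylation, a kept peak overlapped the amplicon, at chr19:605376-605576 with rank 82.3 at mbt and at chr19:605390-605590 with rank 97.6 in one-cell embryos, and sperm had a peak there with rank 85.0. At sox2, a transcription factor gene of early neural and stem cells chosen there as poor in methylation, neither list had a peak on the amplicon. The nearest centre was 19332 bp away at mbt and 8885 bp away in one-cell embryos.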

How the data were processed

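Methylated DNA was captured from sonicated genomic DNA with a methyl-CpG binding domain protein and sequenced. The authors aligned paired reads to Zv9 with BWA (0.5.8c), retained proper pairs above a minimum mapping quality, called peaks with MACS2 (2.0.10.20120703) per condition and deposited an interval of fixed width around each peak centre. Column 5 of the deposited lists is a score whose unit is not given in the sources used here, so it served only to rank peaks within a list. The deposited brain list is 1 list for a tissue sequenced in more than 1 lane. Read depth per library cannot be computed from peak lists.

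Intervals were compared by overlap of at least 1 bp in Python 3.11.15 with NumPy 2.4.6, pandas 2.3.3 and SciPy 1.17.1. Distances were taken between centres. Shells of equal width at larger distances were added after the data were seen. Percentile ranks and deciles used the score within a list. Shares have 95% Wilson intervals. Functions were checked on simulated lists and against bedtools. Coordinates are 1-based, on Zv9. Deciles and runs of consecutive peaks cover all members. Windows of 1 Mb needed at least 50 peaks, which left out 13 windows for the one-cell list and 225 for the mbt list. Named were the chromosomes and the 3 windows with the highest and lowest shares, the longest runs, the 5 highest-scoring missing and new peaks with no centre of the other list within 1000 bp on the 25 chromosomes, and the tert and sox2 amplicons. The highest-scoring kept peak was named after its values were seen. The members, lists and thresholds were chosen with earlier results of these data known. Genes and sequence under the peaks were not analysed here, because no Zv9 genome or annotation was used. The settings varied were the overlap, the lowest score, the list length, scaffolds, merging and the distance between centres.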

Additional observations from a re-analysis of the deposited data

How the results depend on the processing

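With 1 library per condition, differences between the stages and differences between their libraries cannot be told apart. Intervals cover counting error only. The read depth behind a peak is not in the lists, so a missing peak is one not listed at this depth. No paired analysis was possible because each stage has 1 library. No value changed sign over the 12 results and 81 alternative values, and 50 values moved, which means that they lay outside the interval of the main value. The kept share, the new share, new peaks found in sperm, missing peaks with a nearby mbt centre and the chromosome range cannot be negative. For these a change of sign was not possible. Values below stand in the order kept share, new share, kept share found minus not found in sperm, new peaks found in sperm, rank kept minus missing, rank already present minus new, missing peaks with an mbt centre within 1000 bp, neighbour distance kept minus missing, missing after missing minus after kept, 3dpf presence kept minus missing and already present minus new, and chromosome range, leaving out those that did not move.

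With an overlap of at least 100 bp, in the sperm and 3dpf lookups too, they were 50.2%, 26.8%, 61.6 points, 46.6%, 36.3 and 12.9 percentile points, 27.6%, 50.5 points and 25 points (the neighbour and chromosome values did not move). The rise to 27.6% is fixed by the setting. Peaks with a smaller overlap turn missing, and each of them has an mbt centre within 200 bp. At or above the median score they were 51.6%, 25%, 74.8 points, 55.5%, 14.0%, -252 bp, 1.2 points, 61.9 points, 14.2 points and 5.08 points, with no rank result run. At or above the upper quartile they were 47.3%, 31.1%, 75.6 points, 51.0%, 13.2%, -36 bp, 1.50 points, 61.9 points and 13.1 points. The interval of the -36 bp ran from -262 to 190 bp, so its sign is not settled. With equal numbers of highest-scoring peaks they were 70.1%, 29.9%, 63.4 points, 66.4%, 31.5 and 27.0 percentile points, 29.5%, -138 bp, 1.10 points, 22.1 points for already present minus new, and 2.82 points. With centres within 1000 bp counted as present, in the sperm and 3dpf lookups too, they were 64.0%, 8.08%, 60.1 points, 40.6 and 23.7 percentile points, -297 bp, 5.85 points, 56.3 points and 23.7 points. The 60.1 points therefore differ from the shares of 94.1 and 40.6% above, where sperm was matched by overlap. New peaks found in sperm, at 50.4%, did not move under this rule. With sperm matched by overlap the share was 45.9% for the same new peaks. Missing peaks with a nearby mbt centre were 8.97% within 500 bp and 36.4% within 2000 bp. Leaving out scaffolds moved none of the 12. Merging could move none, because no intervals of a list overlap or touch.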
